A study of Mus musculus with 12 samples.

Results

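Levels of 9 genes of active DNA demethylation were compared between wild-type mouse embryonic stem (ES) cells and Drosha-deficient ES cells. Drosha is the nuclear enzyme that releases microRNA hairpins from their primary transcripts. The genes were taken by name: the dioxygenase genes Tet1, Tet2 and Tet3, the glycosylase genes Tdg and Mbd4, the genes Gadd45a, Gadd45b and Gadd45g, and Dppa3. Each of the 9 had 1 row among the 36883 rows of each deposited gene table. The series has 12 samples. The 6 RNA libraries used here are 1 wild-type and 1 Drosha-deficient library from each of 3 fractions, which are poly(A)-selected mRNA, long RNA and short RNA. Both genotypes were cultured with serum and leukemia inhibitory factor. The labels of the DNA samples name the AB1 line of 129Sv/Ev background, from which the Drosha-deficient cells were derived. The labels of the RNA samples give the genotype and no line, and the sources used here do not say how Drosha was disrupted or how many clones were used. The Dnmt1-deficient samples and the DNA methylation samples were not analysed here.

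In mammals 5-methylcytosine is removed actively in steps. The TET enzymes oxidise it, the glycosylase TDG cuts out the most oxidised forms, and base excision repair puts back an unmodified cytosine. MBD4 is a glycosylase for thymine and uracil opposite guanine at CpG sites, where deaminated methylcytosine gives such mismatches. The GADD45 proteins are small stress-induced adaptors that bind cell cycle and stress kinases and have been reported to recruit repair enzymes to methylated DNA. DPPA3, also called Stella or PGC7, protects methylation in the early embryo from TET3 and in other cells can keep UHRF1, the partner of the maintenance methyltransferase, away from chromatin. Tet1 and Tet2 are the main TET genes of mouse ES cells, whereas Tet3 is best known from the oocyte and zygote.

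Values are FPKM, fragment numbers corrected for the size of the library and the length of the transcript. Differences are log2((Drosha-deficient FPKM + 1)/(wild-type FPKM + 1)), a scale that understates the changes of genes of low level. A gene counted as measured when its row had the authors' status OK and 1 FPKM or more in either library, and it was called higher or lower from a difference of 1 or more in size, that is, 2-fold on that scale. With 1 library per genotype and fraction, no difference has a replicate check and no test was possible. By estimate from the steps between low values, depth was about 23000000 fragments in the wild-type and 26100000 in the Drosha-deficient mRNA library, and in long RNA 19300000 and 23300000. Intervals beside a fold value are exact 95% binomial intervals on the estimated fragments per kilobase of transcript. They treat every transcript as 1 kilobase long, so they are wider than counting error for longer transcripts and narrower for shorter ones. They do not cover the spread between cultures. Both fractions may come from the same cells, so agreement between them is no biological replicate. In bulk RNA, fewer cells that express a gene and less RNA per cell cannot be told apart.

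Drosha itself, on chromosome 15, was 6.77-fold lower in the mRNA of the library labelled Drosha-deficient (42.1 against 6.22 FPKM) and 4.87-fold lower in long RNA (21.2 against 4.34 FPKM). The ES cell markers Pou5f1 and Dppa5a had high levels in both genotypes, with 562 and 700 FPKM of Pou5f1 mRNA and 732 and 599 FPKM of Dppa5a mRNA in wild-type and Drosha-deficient cells. Of 12 ES cell markers, 2 were higher in mRNA, Sall4 and Fgf4, beside 8.64% of all measured rows, and none was lower. In long RNA 11 were measured and none was called, and 7 had the lower value in Drosha-deficient cells. The median difference of these markers was 0.13 in mRNA and -0.14 in long RNA. Markers of other cells differed unevenly between the genotypes. The summed level of 18 fibroblast markers was 784 FPKM in wild-type and 511 FPKM in Drosha-deficient mRNA, and 415 and 227 FPKM in long RNA. Of these 18, 14 had the lower value in Drosha-deficient mRNA and 16 in long RNA. In mRNA 9 of the 15 measured were called lower, beside 7.93% of all measured rows. However, 6 of those 9 passed the minimum through the wild-type library alone. Fn1 and Sparc, the highest of the list in wild-type mRNA, read 209 and 179 FPKM and 222 and 219 FPKM in mRNA and were not called. The collagen gene Col1a2 read 19.6 and 0.116 FPKM in mRNA, Dcn had the higher value in Drosha-deficient mRNA (0.0752 and 0.999 FPKM, under the minimum), and Lum was listed at 0 in the wild-type mRNA library and in the Drosha-deficient long RNA library. The sums of 12 primitive endoderm markers were 57.2 and 55.03 FPKM in mRNA, with 6 lower in value, and 62.4 and 41.4 FPKM in long RNA, with 11 lower in value and Sox7 listed at 0. The 2-cell-like state, in which a few ES cells resemble the early embryo, had 18 of its 19 markers in the tables. Their sums were 24.1 against 177 FPKM in mRNA and 11.5 against 167 FPKM in long RNA, and all 18 had the higher value in Drosha-deficient cells in both fractions. Of the 17 that were measured, 11 in mRNA and 13 in long RNA were under 1 FPKM in wild type and so passed the minimum through the library where they were high. The part of these cells in the results that follow was not tested.

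The 3 Gadd45 genes gave all the calls among the 9 genes. Gadd45a and Gadd45b were lower and Gadd45g was higher in Drosha-deficient cells. All 9 genes were measured in mRNA, where 1 was higher, beside 8.64% of all measured rows, and 2 were lower, beside 7.93% of rows. In long RNA 8 of the 9 were measured, 1 was higher (6.26% of rows) and 1 was lower (6.89% of rows). With so few genes these counts stand within 1 or 2 genes of those percentages, so the number of calls is not a result about the 9 genes. Their median difference was -0.14 in mRNA, where the median of all measured rows was 0.0081, and -0.15 in long RNA, where it was -0.04. The authors' deposited tables call none of the 9 genes, and call 0.112% of tested rows in mRNA and 0.118% in long RNA. The authors' deposited tables give these genes a q-value of 0.999 in mRNA and 0.9997 or above in long RNA. Drosha has a q-value of 0.390 in the authors' deposited mRNA table and 0.707 in the one for long RNA. These q-values compare single libraries and not genotypes.

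**Figure D1:**
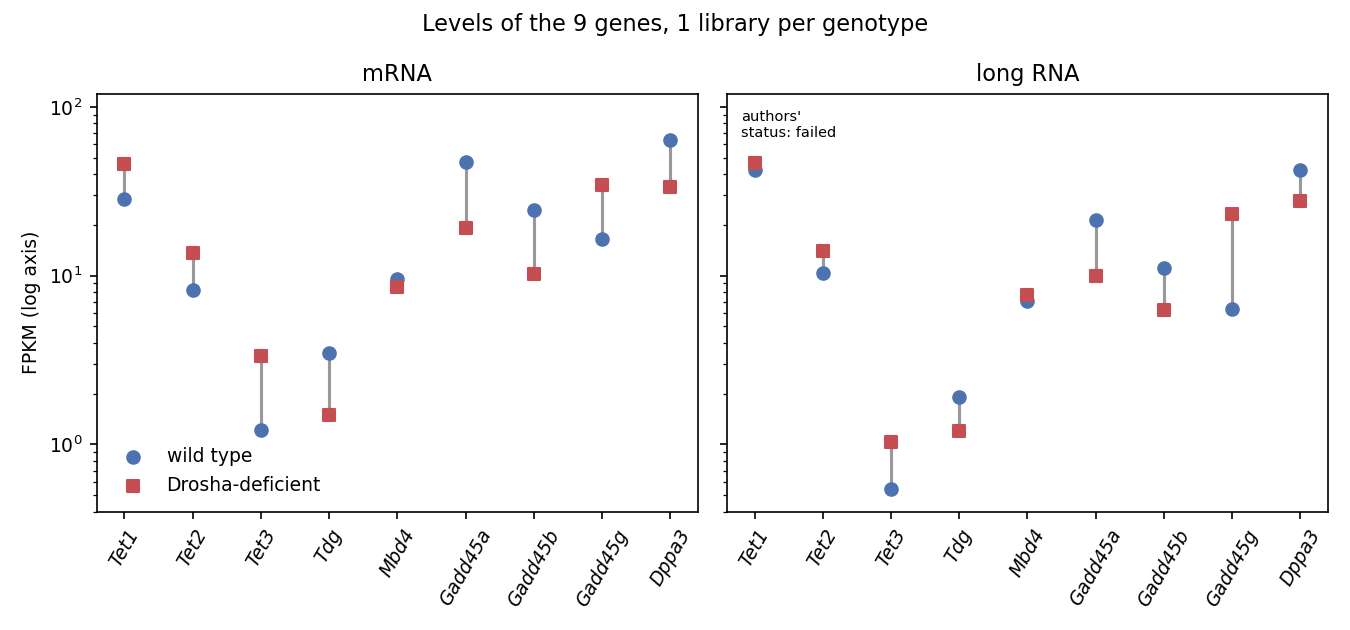
FPKM on a log axis of the 9 genes in mRNA (left) and long RNA (right), with 1 wild-type library (blue circles) and 1 Drosha-deficient library (red squares) each, and a grey line between both. In both fractions Gadd45a, Gadd45b, Tdg and Dppa3 lie lower, and Gadd45g, Tet2 and Tet3 higher, in Drosha-deficient cells; Tet1 in long RNA carries the authors' status of failed, and levels are not comparable between the panels.

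The promoters of the 3 Gadd45 genes are printed here because these genes moved in opposite directions. Each line holds the 250 bases before the RefSeq gene start in build GRCm38.p6, 5′ to 3′ on the gene's strand. Capitals mark matches, on either strand, to the CCAAT box (CCAAT), the E-box (CACGTG), the octamer (ATTTGCAT), the AP-1 site (TGANTCA), the cyclic AMP response element (TGACGTCA) and TGACG, which TGACGTCA contains. Gadd45a is at chr6:67037408-67037657 on the minus strand, Gadd45b at chr10:80929841-80930090 on the plus strand and Gadd45g at chr13:51846425-51846674 on the plus strand.
Gadd45a: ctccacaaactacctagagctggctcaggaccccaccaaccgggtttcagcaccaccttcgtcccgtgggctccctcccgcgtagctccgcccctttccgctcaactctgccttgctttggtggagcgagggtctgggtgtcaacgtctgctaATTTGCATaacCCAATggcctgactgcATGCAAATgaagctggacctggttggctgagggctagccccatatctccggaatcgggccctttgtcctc
Gadd45b: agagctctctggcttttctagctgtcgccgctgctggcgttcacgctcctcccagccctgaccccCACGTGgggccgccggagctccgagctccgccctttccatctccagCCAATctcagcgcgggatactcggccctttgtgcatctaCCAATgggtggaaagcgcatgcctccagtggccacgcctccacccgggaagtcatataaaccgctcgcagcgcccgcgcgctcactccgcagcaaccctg
Gadd45g: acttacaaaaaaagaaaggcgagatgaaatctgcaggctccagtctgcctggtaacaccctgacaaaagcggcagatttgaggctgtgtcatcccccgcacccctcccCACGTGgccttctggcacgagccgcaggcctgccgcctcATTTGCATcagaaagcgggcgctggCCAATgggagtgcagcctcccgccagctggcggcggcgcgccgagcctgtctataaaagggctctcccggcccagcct
Gadd45a holds 1 CCAAT box and 2 octamers, the motif of POU transcription factors. Gadd45b holds 2 CCAAT boxes and 1 E-box, and Gadd45g holds 1 CCAAT box, 1 E-box and 1 octamer. Over 21263 promoter windows of the same length from RefSeq, some of which lie before an inner transcript start, 35.4% hold a CCAAT box, 6.63% an E-box and 1.58% an octamer. The AP-1 letters (6.13% of promoters), TGACGTCA (1.92%) and TGACG (20.2%) are not in these 3 windows. The GC box GGGCGG, left in lower case, is in the windows of Gadd45a and Gadd45b, 1 each, not in that of Gadd45g, and in 42.6% of promoters. The windows of Gadd45a, Gadd45b and Gadd45g hold 11, 22 and 16 CpG, and the median over the promoters is 10. A match is a description of the letters and no evidence of binding.

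Gadd45a, the founding member, induced by DNA damage and growth arrest, read 46.9 FPKM in wild-type and 19.2 FPKM in Drosha-deficient mRNA. In long RNA it read 21.4 and 9.95 FPKM. It was thus lower by 2.44-fold in mRNA (interval 2.20 to 2.72) and by 2.15-fold in long RNA (1.83 to 2.54), with differences of -1.25 and -1.04. The long RNA value lies just past the 2-fold line, and after subtraction of the median of all rows it was -0.99 and no longer called. The Gadd45a row spans chr6:67035096-67080654 and takes in the long noncoding gene E230016M11Rik, which read 0.567 and 0.142 FPKM in mRNA. The sources used here do not say whether fragments were counted by strand.

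Gadd45b, first described as a gene induced by myeloid differentiation signals, read 24.3 against 10.2 FPKM in mRNA and 11.05 against 6.28 FPKM in long RNA. The mRNA was 2.38-fold lower in Drosha-deficient cells (interval 2.05 to 2.76), with a difference of -1.18. In long RNA the ratio was 1.76-fold (1.42 to 2.19) and the difference -0.73, short of the call. Gadd45b was thus called in 1 of the 2 fractions, with the lower value in the Drosha-deficient library in both. Its row lies at chr10:80930091-80932204.

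Gadd45g, a growth arrest gene of the same family, went the other way. Its mRNA read 16.6 FPKM in wild-type and 34.4 FPKM in Drosha-deficient cells, and its long RNA 6.35 and 23.3 FPKM. The ratio was 2.07-fold in mRNA (interval 1.84 to 2.35) and 3.67-fold in long RNA (3.002 to 4.48), with differences of 1.01 and 1.72. Among all measured rows these stand at percentiles 91.5 and 97.9. The mRNA value lies just inside the 2-fold line, whereas the long RNA call held under every alternative run. Its row lies at chr13:51846678-51848468.

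The makeup of the family by level per length was therefore reordered. Gadd45a gave 53.4% of the summed Gadd45 FPKM in wild-type mRNA and 30.1% in Drosha-deficient mRNA. Gadd45b gave 27.7% and 16.0%. Gadd45g gave 18.9% and 53.9%, so the lowest member of the wild-type library was the highest of the Drosha-deficient library. In long RNA the order changed in the same way, with Gadd45g at 16.3% and 58.9% and Gadd45a at 55.2% and 25.2%. The ratio of Gadd45a to Gadd45g went from 2.83 to 0.558 in mRNA and from 3.38 to 0.428 in long RNA. The family sum was 87.8 and 63.8 FPKM in mRNA, a ratio of 0.726, and 38.8 and 39.5 FPKM in long RNA, a ratio of 1.02.

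**Figure D2:**
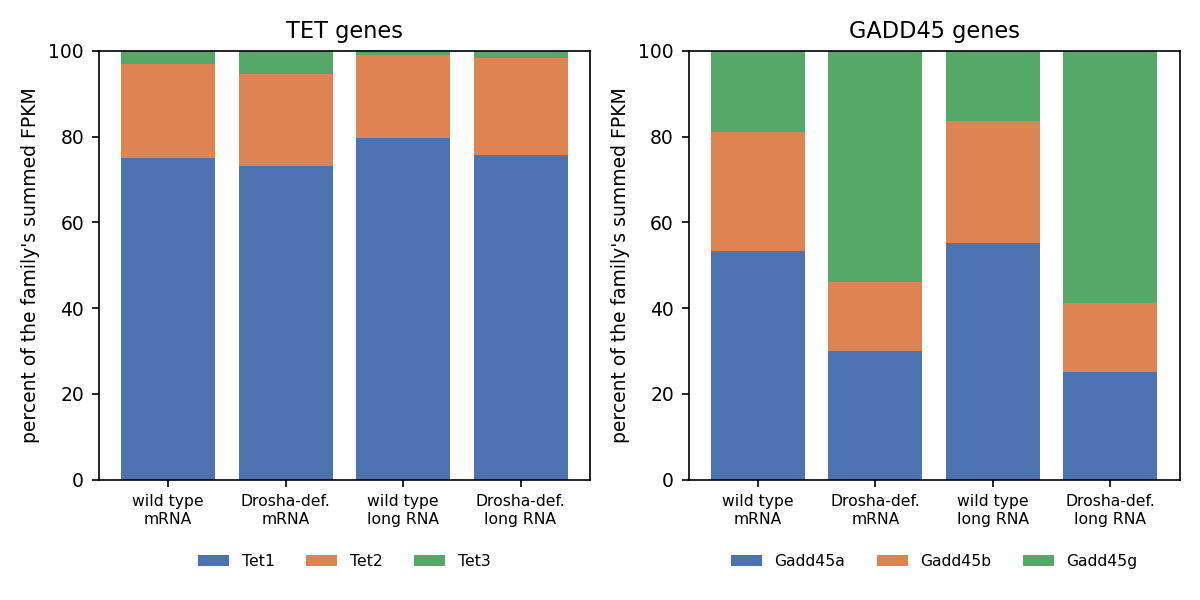
Share in percent of the summed FPKM of the TET genes (left) and of the Gadd45 genes (right) taken by each member, with 1 stacked bar per library. Gadd45g takes 18.9% of the Gadd45 sum in wild-type mRNA and 53.9% in Drosha-deficient mRNA, and the TET shares differ less, with Tet1 at 75.05% and 73.1% in mRNA.

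Across the 4 mRNA and long RNA libraries, the genes of most similar level were sought among 13002 genes by the Euclidean distance over the 4 values of log2(FPKM + 1) of each gene. For Gadd45a these were Coq2 (distance 0.197), Tmem261 (0.247) and Chchd7 (0.274). For Gadd45g they were Calr-ps (0.378), Gm11826 (0.404) and Gm15501 (0.420). With 4 libraries a small distance describes equal levels and nothing else.

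None of the TET genes was called, and the values of all 3 were higher in the Drosha-deficient library of both fractions. Tet1, the most abundant TET gene of these cells, read 28.5 and 45.9 FPKM in mRNA, a ratio of 1.61 (interval 1.47 to 1.78) and a difference of 0.67. In long RNA the authors' status of Tet1 is failed. The values printed there, 42.5 and 46.4 FPKM with a difference of 0.13, were therefore left out of the counts. Its row spans chr10:62804570-62899118.

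Tet2, which lacks the CXXC domain that binds CpG in Tet1 and Tet3, read 8.26 and 13.6 FPKM in mRNA, and in long RNA 10.3 and 13.96 FPKM. Its ratios were 1.64 (interval 1.37 to 1.97) and 1.36 (1.13 to 1.63), and its differences 0.65 and 0.40. Both fall short of the call, and both intervals lie above 1. The row lies at chr3:133463679-133544390.

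Tet3 read 1.21 and 3.35 FPKM in mRNA, a ratio of 2.77 (interval 1.79 to 4.39), which is the largest ratio among the 9 genes in mRNA, from about 28 and 88 fragments per kilobase. On the log2(FPKM + 1) scale the difference was 0.98, just outside the call, and with a pseudocount of 0.1 FPKM it was 1.40 and called. In long RNA it read 0.542 and 1.04 FPKM and was measured only through the Drosha-deficient library. There the ratio was 1.92 with an interval of 0.918 to 4.67 on the per-kilobase scale, which includes equal levels. The row lies at chr6:83362373-83459084. Of all genes with a measured mRNA row, 8.41% had a lower wild-type level than Tet3, against 76.1% for Tet1.

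The TET genes kept their order by level per length in all libraries. Tet1 took 75.05% and 73.1% of the summed TET mRNA in wild-type and Drosha-deficient cells, Tet2 21.8% and 21.6%, and Tet3 3.19% and 5.33%. The sum was 37.9 and 62.9 FPKM in mRNA, a ratio of 1.66, and 53.3 and 61.4 FPKM in long RNA, a ratio of 1.15 that rests on the failed Tet1 row. The ratio of Tet1 to Tet2 was 3.45 and 3.39 in mRNA.

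MicroRNAs of the miR-29 family have been reported to act on TET and TDG transcripts, and they need Drosha to be made. Their mature sequences from RefSeq are shown because they share 1 seed, bases 2 to 8, in capitals.
miR-29a-3p: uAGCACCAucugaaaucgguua
miR-29b-3p: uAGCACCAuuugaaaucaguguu
miR-29c-3p: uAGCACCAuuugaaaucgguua
In short RNA the Mir29a row read 1216 FPKM in wild-type and 26.3 FPKM in Drosha-deficient cells, 46.3-fold lower. The row that joins Mir29b-2 and Mir29c with their host transcript read 261 and 13.2 FPKM, and the row that joins Mir29b-1 with Gm27019 read 6.43 and 0.943 FPKM. Most microRNA genes were lower in that fraction, 146 of 157 measured, and 6 were higher, beside 18.4% of all measured rows that were lower. Whether these microRNAs have a part in the TET or Tdg values was not tested. Of the 9 genes, Tet1 and Dppa3 were measured in short RNA, with 3.94 FPKM of Tet1 in wild-type and 3.93 FPKM in Drosha-deficient cells, and 4.99 and 5.07 FPKM of Dppa3.

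Tdg, the glycosylase that removes formylcytosine and carboxylcytosine, read 3.49 and 1.49 FPKM in mRNA, and in long RNA 1.92 and 1.20 FPKM. The mRNA value was 2.35-fold lower in Drosha-deficient cells (interval 1.57 to 3.51), from about 80 and 39 fragments per kilobase. On the log2(FPKM + 1) scale the difference was -0.85, short of the call, and with a pseudocount of 0.1 FPKM it was -1.18 and called. In long RNA the ratio of 1.596 had an interval of 0.948 to 2.70 on the per-kilobase scale, which includes equal levels. The Tdg row spans chr10:82629828-82690650 and overlaps Glt8d2, which read 0.213 and 0.129 FPKM in mRNA.

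RefSeq also names copies of Tdg elsewhere in the genome, so fragments may be shared and its value is uncertain. How alike the sequences of these copies are was not examined. The copy in the row Gm9855, at chr10:42054113-42055306, read 9.002 and 11.3 FPKM in mRNA, above Tdg itself in both genotypes, with a difference of 0.29. The copy in the row Gm5806, at chr15:82516311-82519278, read 5.52 and 1.86 FPKM in mRNA, and in long RNA 3.67 and 1.03 FPKM, with differences of -1.19 and -1.20. The 3 rows together held 18.0 and 14.6 FPKM in mRNA, and in long RNA 9.37 and 6.13 FPKM. The sources used here do not say how fragments that match several copies were assigned.

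Mbd4 differed least among the 9 genes in mRNA. It read 9.51 and 8.52 FPKM in mRNA, and in long RNA 7.03 and 7.67 FPKM, with differences of -0.14 and 0.11. Its ratios of Drosha-deficient to wild type were 0.896 (interval 0.740 to 1.08) and 1.09 (0.869 to 1.38), and both intervals include 1. The ratio of Mbd4 to Tdg by level per length was 2.72 in wild-type and 5.73 in Drosha-deficient mRNA, and this ratio carries the uncertainty of Tdg. The Mbd4 row lies at chr6:115840697-115853371.

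Dppa3, the marker of naive ES cells and germ cells, had the highest wild-type mRNA level of the 9 genes. It read 63.6 and 33.3 FPKM in mRNA, and in long RNA 42.5 and 27.5 FPKM. It was 1.91-fold lower in Drosha-deficient mRNA (interval 1.75 to 2.08) and 1.55-fold lower in long RNA (1.39 to 1.72), with differences of -0.91 and -0.61, both short of the call. The gene lies at chr6:122626410-122630272. A copy of Dppa3 lies within the row Rhox3g, which read 2.47 and 1.97 FPKM in mRNA, so shared fragments are possible there too.

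**Figure D3:**
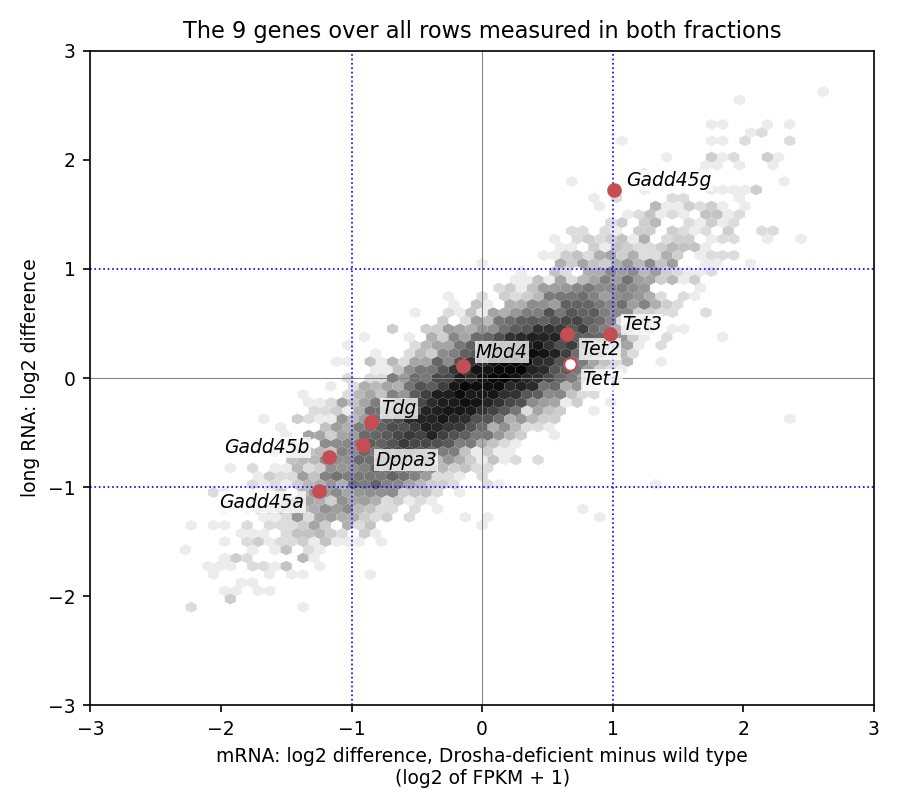
Difference between Drosha-deficient and wild-type cells on the log2(FPKM + 1) scale in mRNA (x axis) and long RNA (y axis) for all rows measured in both fractions within 3 of 0 (grey hexagons, darker where more rows fall) and the 9 genes (red points; open for Tet1, failed in long RNA); dotted lines mark 2-fold. Gadd45a lies beyond both lines on the lower side and Gadd45g on the upper side, and Mbd4 lies nearest to 0.

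The mRNA and long RNA differences were also set against each other, gene by gene. The difference in mRNA minus that in long RNA was 0.25 for Tet2 and 0.57 for Tet3. For Tet1 it was 0.55, from a long RNA row of failed status that is not among the rows measured in both. It was -0.45 for Tdg, -0.25 for Mbd4, -0.30 for Dppa3, -0.21 for Gadd45a and -0.45 for Gadd45b. These 8 values lie between the 5th and 95th percentiles of all rows measured in both fractions, at -0.59 and 0.71 around a median of 0.07. Gadd45g, at -0.71, stands at percentile 2.96 of those rows, with the larger difference in long RNA.

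Genes beside the 9 were read for the same difference. Of 18 nearest measured protein-coding neighbours, 1 was higher and 2 were lower in mRNA, beside 8.64% and 7.93% of all measured rows. In long RNA 1 was higher and 1 lower, beside 6.26% and 6.89% of rows. These counts are near those shares and are no result about the neighbours as a group. The higher neighbour was Gdf3, a TGF-beta family ligand 16.3 kb from Dppa3, which read 27.3 and 67.8 FPKM in mRNA, and in long RNA 16.5 and 38.6 FPKM, with differences of 1.28 and 1.18. On the other side of Dppa3, 77.2 kb away, the pluripotency factor gene Nanog had differences of 0.10 and 0.53. Gdf3 and Nanog thus had the higher value in Drosha-deficient cells in both fractions, unlike Dppa3. Whether other genes of the region share the lower value of Dppa3 was not tested. The neighbour lower in both fractions was Gng12, a G protein subunit gene 13.7 kb from Gadd45a, which read 7.78 and 2.22 FPKM in mRNA, and in long RNA 3.98 and 0.903 FPKM, with differences of -1.45 and -1.39. Plxnd1, 101 kb from Mbd4, was lower in mRNA (2.62 and 0.728 FPKM, difference -1.07) and had a difference of -0.83 in long RNA.

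The steps after the TET and TDG reactions were followed in 19 base excision repair genes. None was higher, 3 were lower in mRNA, beside 7.93% of all measured rows, and none was called in long RNA. The medians were -0.26 and -0.24. The lower genes encode DNA glycosylases, but other glycosylase genes of the list were not called in mRNA. These were Ung (-0.18), Ogg1 (-0.26), Nthl1 (-0.31), Neil1 (-0.35), Smug1 (-0.47) and Mutyh (-0.75). The 3 lower genes were Mpg, Neil3 and Neil2. Mpg, which removes alkylated purines, read 23.6 and 8.80 FPKM in mRNA (difference -1.33). Neil3 read 12.1 and 5.09 FPKM (-1.10) and Neil2, a glycosylase reported to assist TDG, 7.99 and 3.24 FPKM (-1.08). Their long RNA differences, -0.54, -0.48 and -0.49, had the same sign and were not called. Of the 3 most abundant genes of the list in wild-type mRNA, Parp1, a sensor of strand breaks, read 139 and 156 FPKM and the ligase gene Lig1 96.1 and 99.8 FPKM. The other one, the abasic site endonuclease gene Apex1, read 90.6 and 157 FPKM, with a difference of 0.78 in both fractions that was not called.

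Deaminases offer another route from methylcytosine to a mismatch. Of 4 cytosine deaminase genes, 3 were measured, and Apobec2 was higher in both fractions, with 3.75 and 14.1 FPKM in mRNA (difference 1.67), and in long RNA 2.47 and 10.7 FPKM (1.75). It was the only deaminase called in either fraction, beside 8.64% of all rows higher in mRNA and 6.26% in long RNA. Enzyme activity of its protein on DNA is not established.

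Genes for partners of the TET proteins and the supply of their cofactor made a further list. Of 15 measured in mRNA, 2 were higher, beside 8.64% of all measured rows. In long RNA 1 of 16 was higher, beside 6.26% of rows. None was lower, beside 7.93% of rows in mRNA and 6.89% in long RNA. These counts are no result about the list as a group. Prdm14, which recruits TET proteins in naive ES cells, was higher in both, at 4.05 and 10.9 FPKM in mRNA (1.23), and in long RNA 2.65 and 7.93 FPKM (1.29). Sall4, a zinc finger factor reported to act with TET enzymes at enhancers, was higher in mRNA at 37.9 and 105 FPKM (1.44), with a long RNA difference of 0.55. Of 8 reported readers of oxidised methylcytosine 7 were measured and none was called, beside the same shares of rows. Mbd3 read 85.7 and 104 FPKM and Uhrf2 45.0 and 35.2 FPKM in mRNA.

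Genes for reported partners of GADD45 proteins include kinases, a cyclin, Pcna and the repair nuclease gene Ercc5. None of 9 measured was called in mRNA and none of 10 in long RNA. Of all measured rows, 83.4% in mRNA and 86.9% in long RNA were not called, so this is no result about the partners. Cdk1, the mitotic kinase, read 315 and 245 FPKM in mRNA, and its partner Ccnb1 68.9 and 62.5 FPKM. Genes that share inducers with Gadd45a were counted next. Among 12 genes of the DNA damage response, 11 were measured in mRNA, with a median of 0.25. Of these, 1 was higher, beside 8.64% of all rows, and none was lower, beside 7.93%. The higher gene was Sesn2, a stress-induced regulator of growth signalling, at 24.2 and 55.1 FPKM (1.16). In long RNA none of 12 was called, beside 6.26% of rows higher and 6.89% lower.

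Of all measured rows, 8.64% were higher and 7.93% lower in mRNA, and 6.26% and 6.89% in long RNA. Beside these shares, among 10 genes of the ATF4 and unfolded protein responses, 1 was higher and 3 lower in each fraction. The medians were -0.61 and -0.57. Hspa5, the main chaperone of the endoplasmic reticulum, was the higher one, at 152 and 647 FPKM in mRNA (2.09), and in long RNA 147 and 545 FPKM (1.89). Chac1, which degrades glutathione, was lower at 6.63 and 1.049 FPKM in mRNA (-1.90), and the asparagine synthetase gene Asns at 193 and 71.8 FPKM (-1.41), both also lower in long RNA. Ddit3, which encodes CHOP, was lower in mRNA at 10.3 and 3.80 FPKM (-1.23), and Atf3 was the third lower gene in long RNA (-1.08). In long RNA Chac1 and Atf3 passed the minimum through the wild-type library alone. Immediate early genes are induced quickly by serum and growth signals. Of 10 such genes, 4 were lower in mRNA (7.93% of rows) and 3 in long RNA (6.89% of rows). None was higher, and the medians were -0.39 and -0.61. Fos had a difference of -2.77 in mRNA (31.0 and 3.68 FPKM) and of -2.07 in long RNA (17.2 and 3.31 FPKM). Ier3, Fosb and, in mRNA, Junb made up the rest, and Fosb passed the minimum in mRNA through the wild-type library alone.

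**Figure D4:**
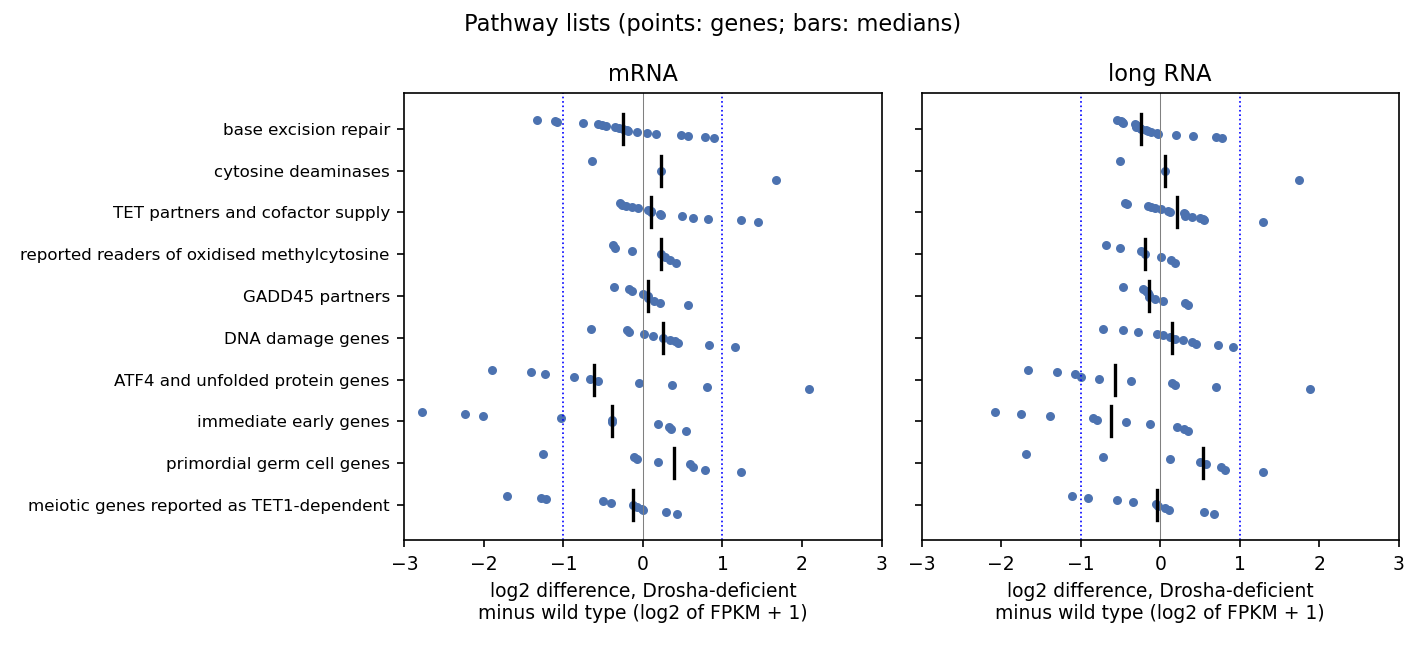
Difference between Drosha-deficient and wild-type cells on the log2(FPKM + 1) scale for the measured members of each gene list (blue points) and their median (black bars) in mRNA (left) and long RNA (right); dotted lines mark 2-fold. All medians lie within the dotted lines, from -0.61 to 0.54.

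Genes tied to demethylation by their place in the germ line were mixed. For the counts below, the shares of all measured rows were 8.64% higher and 7.93% lower in mRNA, and 6.26% and 6.89% in long RNA. Of 8 primordial germ cell genes, 1 was higher and 1 lower in each fraction, near those shares for so small a list. The higher one was Prdm14, and the lower one was Tfap2c, a germ cell and trophoblast factor, at 26.3 and 10.4 FPKM in mRNA (-1.25), and in long RNA 16.9 and 4.57 FPKM (-1.69). Of 11 meiotic genes reported to need TET1 in germ cells, 3 were lower in mRNA and 1 of 10 measured was lower in long RNA. Rec8, a meiotic cohesin subunit, was lower in both, with 42.7 and 17.8 FPKM in mRNA (-1.22), and in long RNA 12.1 and 5.11 FPKM (-1.11). Sycp3, of the synaptonemal complex, and Stag3, another cohesin subunit, were lower in mRNA, with differences of -1.29 and -1.70. On the opposing side, among 5 genes that place or maintain methylation, 2 were higher in mRNA, Dnmt3a (1.15) and Dnmt3b (1.26), and none was called in long RNA.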

How the data were processed

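RNA of wild-type and Drosha-deficient ES cells was compared in 3 fractions. The authors deposited 1 gene table per fraction in FPKM, with wild type as the first value, per the file headers. The p-values and q-values in the authors' deposited tables are Cuffdiff's, from single libraries. The tools were TopHat2 2.0.10, Cufflinks 2.1.1, Cuffdiff and bcl2fastq 1.8.4, and the build was GRCm38, per the submitters' processing notes; the annotation used is not stated there. No label names long RNA, so its table was matched to the total RNA titles by elimination.

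No count model was fitted, since FPKM are not counts. Differences are log2(FPKM + 1) of Drosha-deficient minus wild type. Rows needed the status OK and 1 FPKM in at least 1 library, and calls needed a difference of 1. The status was OK in 16918 mRNA rows and 16160 long RNA rows. Depth was estimated from the steps of low values in pseudogene rows of 1000 to 3000 bases. Simulated data were used to test the calling step only. Levels were not compared across tables, which were normalized separately. The alternatives were pseudocounts of 0.1 and 5 FPKM, no minimum and one of 5 FPKM, a 1.5-fold call and subtraction of the median. Named genes were the 9 genes, Drosha, list members called the same way in both fractions (up to 4 a list, otherwise the 2 highest in wild-type mRNA), the nearest measured neighbours, and the 3 genes most like each member called in both fractions. Other genes called in a list, Apex1, Pcna, Ercc5, Dcn, Sox7, Lum, Fn1, Sparc and the overlapping rows and copies were named after their values were seen. The same holds for the glycosylase genes that were not called. RefSeq promoter entries matched 8 of the 9 genes. The 9 genes and the lists were chosen with earlier results of these data known. Python 3.11.15, pandas 2.3.3 and scipy 1.17.1 were used.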

Additional observations from a re-analysis of the deposited data

Results flagged for a closer look

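Among the 9 genes and the genes that the naming rule took from the lists, the difference between genotypes had opposite signs in mRNA and long RNA in 6; whether the fractions differ was not tested. The mRNA minus the long RNA difference was -0.25 for Mbd4 (-0.14 and 0.11), 0.19 for Parp1 (0.16 and -0.03) and 0.38 for Lig1 (0.05 and -0.32). It was 0.46 for Mbd3 (0.27 and -0.19), -0.45 for Ccnb1 (-0.14 and 0.31) and 0.33 for Pou5f1 (0.32 and -0.0091). None of the 6 was called in either fraction, and all 6 values lie within the 5th to 95th percentiles of all rows, -0.59 to 0.71.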

How the results depend on the processing

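No measured value of the 9 genes changed its sign under any alternative run, and Gadd45g remained the 1 gene higher in long RNA under each. Drosha was not part of these runs. In mRNA the count of genes higher went from 1 to 2 with a pseudocount of 0.1 FPKM (Tet3, 1.40, beside 11.8% of rows), to 0 with one of 5 FPKM (Gadd45g, 0.87, beside 3.74%) and to 4 with a 1.5-fold call (Tet1, Tet2, Tet3 and Gadd45g, beside 19.0% of rows). The count lower in mRNA went from 2 to 3 with 0.1 FPKM (Tdg, -1.18, beside 12.8%), to 1 with 5 FPKM (Gadd45b, -0.95, beside 2.53%) and to 4 with 1.5-fold (Tdg and Dppa3 added, beside 19.4%). In long RNA the count lower went from 1 to 0 with 5 FPKM (Gadd45a, -0.82, beside 2.40%), to 0 after subtraction of the median (-0.99, beside 6.32%), and to 3 with 1.5-fold (Gadd45b and Dppa3 added, beside 17.3%). Keeping rows of failed status was added after seeing the data and changed no count. No paired analysis was possible because each genotype has 1 library per fraction. A level of 1 fragment per kilobase was worth 0.0383 to 0.0517 FPKM. Tet3 and Tdg had the fewest estimated fragments per kilobase among the 9 genes.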
